A study of Homo sapiens with 6 samples.

Results

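The miR-378 family was followed in RMUG-S-ip1 cells, a cell line from a human mucinous ovarian cancer, through every probe of the nCounter miRNA panel whose name contains a miR-378 member. There were 3 such probes among 177 named miRNA probes, on a panel of 800 miRNA rows. They were a shared probe for miR-378a-3p and miR-378i, which counts once, a probe for miR-378e and a probe for miR-378g. The other 623 miRNA rows had no name in the data used here, so any further miR-378 members among them would have been missed. The cells received either an siRNA against PRKRA (siPRKRA) or a control siRNA, each by lipid transfection with the medium changed after 6 hours. Each group had 3 samples, and 100 ng of total RNA from each was labelled for the assay, which captures each miRNA with a probe pair and counts a colour-coded reporter without amplification. PACT, the product of PRKRA, binds double-stranded RNA and partners Dicer, and how far its mRNA was silenced in these cells was not analysed here. The labels do not say whether the samples were separate cultures, so each p-value rests on a spread between samples that may be only technical.

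The deposited value of a probe is its reporter count above background multiplied by 1 factor for the library, with low values set to a floor. The factors were 0.231, 1.09 and 0.469 in siPRKRA replicates 1, 2 and 3, against 1.496, 1.53 and 1.32 in control siRNA replicates 1, 2 and 3. Before the factor the miRNA rows summed to between 142684 and 305261 counts in siPRKRA libraries, and to between 51641 and 56192 counts in control siRNA libraries. siPRKRA replicate 2 stood apart from the other libraries: miR-4454 made up 62.6% of its signal, and its correlation with the others across the 106 tested miRNAs lay between 0.833 and 0.884, against up to 0.985 between the other siPRKRA libraries. The epithelial markers were high, at a summed value of 7074 to 7810 over 6 probes in siPRKRA libraries and 8540 to 9753 in control siRNA libraries, although miR-200a-3p and miR-429 were listed at the floor in the control siRNA libraries. The erythroid miR-144-3p, the only named one of 4 blood markers, ranged between 1.09 and 39.4 in siPRKRA and between 6.07 and 151 in control siRNA libraries. miR-126-3p, the 1 endothelial marker, was above the floor in every library, at 161 to 216 in siPRKRA and 214 to 229 in control siRNA libraries. None of the 7 muscle and 4 fibroblast markers was among the named probes, and these were not analysed here.

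A miRNA guides Argonaute to messenger RNAs mainly through its seed, bases 2 to 8 from its 5′ end, and miRNAs with the same seed are grouped as a family because they can pair with many of the same targets. miR-378a is made from a precursor inside PPARGC1B, the gene of PGC-1β, a coactivator of mitochondrial biogenesis and energy metabolism. miR-378a-3p is best known from muscle, liver and fat, where it takes part in the control of mitochondrial and lipid metabolism, and it has been studied in tumours for effects on survival and glycolysis. The other members are further loci with nearly the same mature sequence, and less is known of them.

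The sequences are shown because the probes are hard to tell apart by target. They come from RefSeq (GRCh38.p14). For the mature miRNAs the capitals mark the seed, and for the miR-378e hairpin they mark the run of 17 bases that it shares with miR-378a-3p.
miR-378a-3p: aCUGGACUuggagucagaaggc
miR-378i: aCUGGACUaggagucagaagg
miR-378g: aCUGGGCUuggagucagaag
MIR378E hairpin: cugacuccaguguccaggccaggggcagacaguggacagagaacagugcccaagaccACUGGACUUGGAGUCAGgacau

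miR-378a-3p lies at chr5:149732867-149732888 on the plus strand, within PPARGC1B. miR-378i lies at chr22:41923271-41923291 on the minus strand, within the span of TNFRSF13C, the gene of the BAFF receptor of B cells. The miR-378e hairpin lies at chr5:170028488-170028566 on the plus strand, within the span of DOCK2, a Rac activator of blood cells. miR-378g lies at chr1:94745880-94745899 on the minus strand, within the span of the long non-coding RNA gene SLC44A3-AS1. Whether these positions are exonic was not analysed here.

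With positions counted from 1 at the 5′ end of miR-378a-3p, miR-378i differed over its 21 bases by U9A, outside the seed, so that both miRNAs of the shared probe carry CUGGACU. miR-378g differed over its 20 bases by A6G, inside the seed, which gives CUGGGCU. The run shared by the MIR378E hairpin covers bases 1 to 17 of miR-378a-3p and so holds the CUGGACU seed. The RefSeq entries searched for this seed left out a whole chromosome, so sequences encoded there may be missing from the counts that follow. Of 10 mature sequences of the family and its other arm found in the entries searched, including miR-422a, 7 carry this seed. Among 148 of 183 miRNA names on the named probes that matched the same entries, miR-378a-3p and miR-378i were the 2 with it. No mature miR-378e entry was found there, so the name miR-378e was not part of this count. The files give no measure of how far a probe of the family also captures its relatives, and the part of that in the values was not tested.

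The shared probe of miR-378a-3p and miR-378i was low but measured above the floor in every library. Its deposited values were 63.4, 50.1 and 70.3 in siPRKRA replicates 1, 2 and 3, against 50.9, 36.8 and 24.2 in control siRNA replicates 1, 2 and 3. The groups met at the edge, since siPRKRA replicate 2 was just under control siRNA replicate 1, and the other siPRKRA libraries were above all control siRNA libraries. The mean was 61.3 ± 10.3 in siPRKRA and 37.3 ± 13.4 in control siRNA libraries (SD, n = 3 each). In limma, fitted to log2(value + 1) over the 106 miRNAs that reached a value of 30 in 3 or more libraries, the log2 fold change of siPRKRA over control siRNA was 0.75 ± 0.33 (SE; 95% interval -0.055 to 1.55), at an unadjusted p of 0.0629 and a Benjamini-Hochberg adjusted p of 0.293. The difference therefore did not pass the threshold of 0.05. It was the 10th highest log2 fold change of the 106, whose median was -0.06. With 25 counts added to every probe as a background, a number chosen here, the difference was 0.07 ± 0.20 (SE). The added counts are multiplied by the factor of the library and so raise the values of control siRNA libraries more. Without control siRNA replicate 3 the difference was 0.48 ± 0.26 (SE). Because the probe is shared, the values do not say which of the miRNAs was counted.

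**Figure D1:**
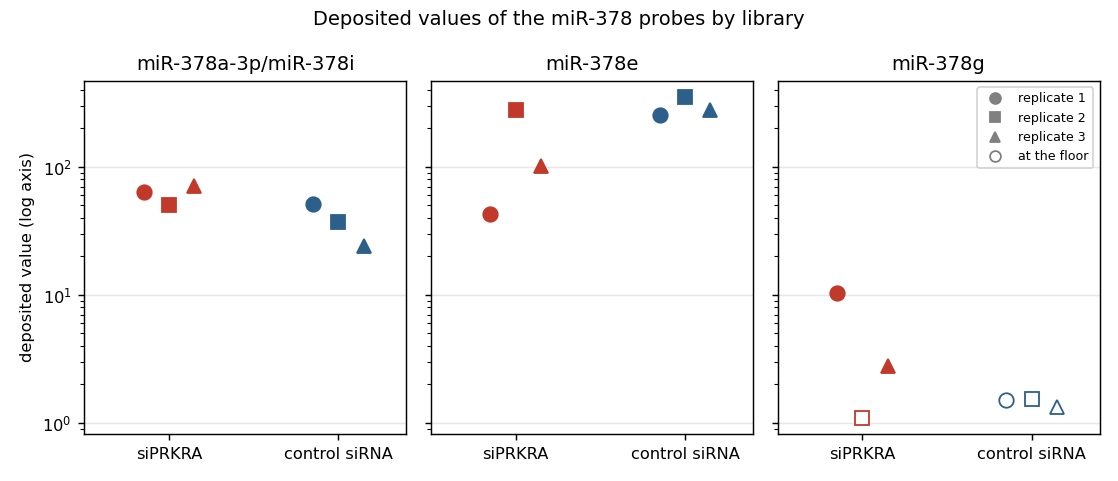
Deposited values (log axis) of the 3 miR-378 probes in each library, siPRKRA on the left and control siRNA on the right of each panel, with open symbols at the floor. The siPRKRA points of the miR-378a-3p/miR-378i probe lie between 50.1 and 70.3 and those of miR-378e spread between 43.0 and 277.

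miR-378e gave the opposite sign and a far wider spread after siPRKRA. Its deposited values were 43.0, 277 and 101 in siPRKRA replicates 1, 2 and 3, against 254, 351 and 279 in control siRNA replicates 1, 2 and 3. siPRKRA replicates 1 and 3 were below every control siRNA library, and siPRKRA replicate 2 was inside the control range, so the groups overlapped. The mean was 140 ± 122 in siPRKRA and 295 ± 50.2 in control siRNA libraries (SD, n = 3 each). The log2 fold change in limma was -1.44 ± 0.64 (SE; 95% interval -3.003 to 0.12), at an unadjusted p of 0.0642 and an adjusted p of 0.293, and did not pass. It was the 4th lowest of the 106 tested miRNAs. On the log2 scale the SD of miR-378e among siPRKRA libraries was 1.33, the 5th widest of the 106, where the median miRNA had 0.31. Among control siRNA libraries it was 0.24, where the median miRNA had 0.16.

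Whether miR-378e was called depended on siPRKRA replicate 2, and its size on siPRKRA replicate 1 as well. Without siPRKRA replicate 2 it stood at -2.13 ± 0.35 (SE) in log2 fold change, with an adjusted p of 0.0217 in limma, and 4 of the 106 miRNAs (3.77%) passed as lower in that fit. Without siPRKRA replicate 1 it was -0.80 ± 0.44 (SE), with an adjusted p of 0.356 in limma.

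Counted together, 0 of the 2 tested family probes had an adjusted p under 0.05 in limma, where the share over all tested miRNAs was 0%. At an unadjusted p under 0.05 there were also 0 of 2, where 17 of the 106 (16%) passed. In limma-voom on the recovered counts 0 of the 2 passed after adjustment and 1 of the 2, miR-378e, before it, where 17 of the 106 (16%) passed before adjustment in the same fit. Neither probe had groups that did not overlap, which was the case for 29 of the 106 (27.4%).

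miR-378g was at or near the limit of the assay and was not among the tested miRNAs. It had 10.2, 1.09 and 2.76 in siPRKRA replicates 1, 2 and 3, against 1.50, 1.53 and 1.32 in control siRNA replicates 1, 2 and 3. The siPRKRA replicate 2 value and all control siRNA values were the floor of their library. siPRKRA replicate 1 was thus the only library with a clear signal, at 44 counts above background (exact Poisson 95% interval 32.0 to 59.1), followed by 6 counts in siPRKRA replicate 3 (2.20 to 13.1). siPRKRA replicate 1 also had the lowest factor, 0.231, so 1 count there was worth less than in any other library. In siPRKRA replicate 2 and the control siRNA libraries the floor was worth about 1 count above background. A value at the floor there is a count at or near the subtracted background, not a count of 0. In siPRKRA replicates 1 and 3 the floor was a value of 1, worth more than 1 count. The files do not give the error of the subtracted background. No limit for the control siRNA libraries and no fold change is therefore given.

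Before the library factor, the miR-378a-3p/miR-378i probe was higher in every siPRKRA library and miR-378e was nearly level, a description added after the values were seen. For the miR-378a-3p/miR-378i probe they were 274, 46 and 150 counts in siPRKRA replicates 1, 2 and 3, against 34, 24 and 18 counts in control siRNA replicates 1, 2 and 3. All siPRKRA libraries were above all control siRNA libraries, as was the case for 60 of the 106 tested miRNAs (56.6%). For miR-378e the counts were 186, 255 and 216 in siPRKRA replicates 1, 2 and 3, against 170, 230 and 212 in control siRNA replicates 1, 2 and 3. Here the groups interleaved, and the highest library exceeded the lowest by 1.50-fold.

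That range of miR-378e was the 2nd smallest of the 106 tested miRNAs, whose median was 7.44-fold, while the miR-378a-3p/miR-378i probe had a range of 14.9-fold. The mean count was 1.07-fold higher in siPRKRA than in control siRNA libraries for miR-378e and 6.15-fold higher for the miR-378a-3p/miR-378i probe, where the tested miRNAs had a median of 3.44-fold. Among the assay's control rows, 5 exceeded 100 counts in every library, and their ranges over the libraries were 1.25-fold to 1.70-fold. The intervals of these counts cover counting error only, without that of the background. For the miR-378a-3p/miR-378i probe the exact Poisson 95% interval was 10.7 to 28.4 at the lowest count, in control siRNA replicate 3, and 243 to 308 at the highest, in siPRKRA replicate 1.

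**Figure D2:**
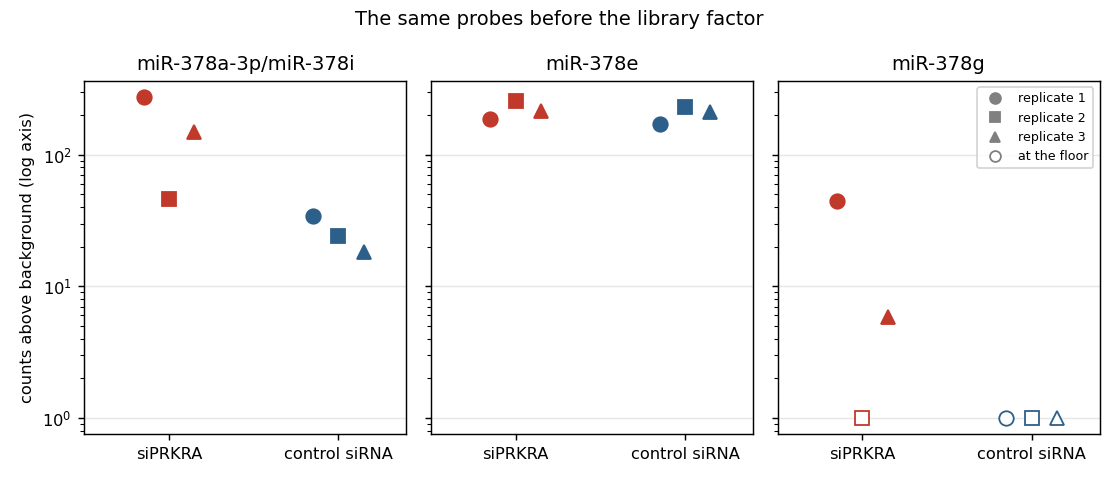
Counts above background (log axis) of the same probes before the library factor, siPRKRA on the left and control siRNA on the right of each panel, with values at the floor drawn open at 1 count. The miR-378e points stay between 170 and 255 counts in all libraries, while the miR-378a-3p/miR-378i points span 18 to 274 counts.

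With nearly level counts, the deposited value of miR-378e was low where the factor of its library was low. It was lowest in the libraries with the factors 0.231 and 0.469, siPRKRA replicates 1 and 3, at 43.0 and 101. It was 277 at the factor 1.09 of siPRKRA replicate 2, and 254 to 351 at the factors 1.32 to 1.53 of the control siRNA libraries. The miR-378a-3p/miR-378i probe was highest in the 2 libraries with the lowest factors, at 63.4 and 70.3. What part the factor had in the group difference of miR-378e was not tested.

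**Figure D3:**
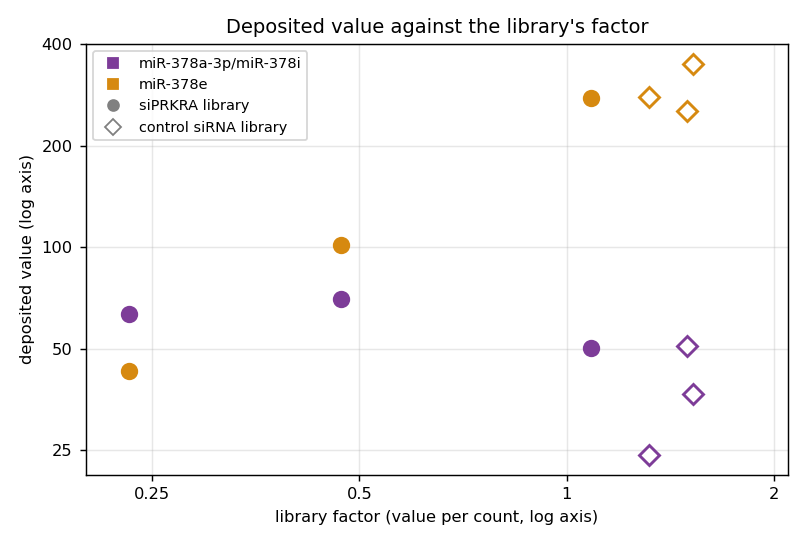
Deposited value against the factor of the library (both log axes) for miR-378a-3p/miR-378i and miR-378e, with filled circles for siPRKRA and open diamonds for control siRNA libraries. miR-378e runs from 43.0 at a factor of 0.231 to 351 at a factor of 1.53, and miR-378a-3p/miR-378i has its highest value, 70.3, at a factor of 0.469.

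The other scalings moved both probes by about the same amount. Scaled by the 5 graded control rows, the miR-378a-3p/miR-378i probe reached a log2 fold change of 2.38 ± 0.80 (SE), with an adjusted p of 0.0280 in limma, among 22 miRNAs (20.8%) that passed as higher, and miR-378e turned to 0.21 ± 0.73 (SE) at 0.787. That scaling moved the median of the tested miRNAs to 1.61. Relative to the median the probes stood at 0.77 and -1.39, against 0.81 and -1.38 in the deposited scaling. Scaled by the 5 mRNA rows of the panel, which moved the median to -0.62, miR-378e was the 1 miRNA of 106 (0.943%) that passed as lower, at -2.01 ± 0.52 (SE) and a limma adjusted p of 0.0438, and the miR-378a-3p/miR-378i probe was at 0.20 ± 0.65 (SE). Since a new factor multiplies every miRNA of a library, the distance from the median is fixed by construction and is no sign of stability.

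To ask whether probes of the family move together, miR-378e was set against the miR-378a-3p/miR-378i probe within each library, where the factor nearly cancels. The difference of their log2(value + 1) was -0.55, 2.44 and 0.52 in siPRKRA replicates 1, 2 and 3, against 2.30, 3.22 and 3.48 in control siRNA replicates 1, 2 and 3. siPRKRA replicates 1 and 3 lay below all control siRNA libraries and siPRKRA replicate 2 lay just above control siRNA replicate 1. The mean was 0.81 ± 1.52 in siPRKRA and 2.998 ± 0.62 in control siRNA libraries (SD, n = 3 each), a difference of -2.19. By an exact two-sided permutation test over the libraries its p was 0.2, where 3 against 3 cannot go below 0.1. The difference was -3.01 without siPRKRA replicate 2 and -1.52 without siPRKRA replicate 1. The level of 1 probe against another also reflects how well each captures its target, so only the change of this difference between libraries is described.

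The same was seen in the share of miR-378e among the counts of both probes. It was 40.4% (exact Clopper-Pearson 95% interval 35.9% to 45.1%), 84.7% (80.1% to 88.6%) and 59.0% (53.8% to 64.1%) in siPRKRA replicates 1, 2 and 3. In control siRNA replicates 1, 2 and 3 it was 83.3% (77.5% to 88.2%), 90.6% (86.3% to 93.9%) and 92.2% (87.9% to 95.3%). The intervals of siPRKRA replicates 1 and 3 overlapped no control siRNA interval, and that of siPRKRA replicate 2 overlapped all of them. These intervals cover counting error only and leave out the spread between samples and the error of the subtracted background.

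**Figure D4:**
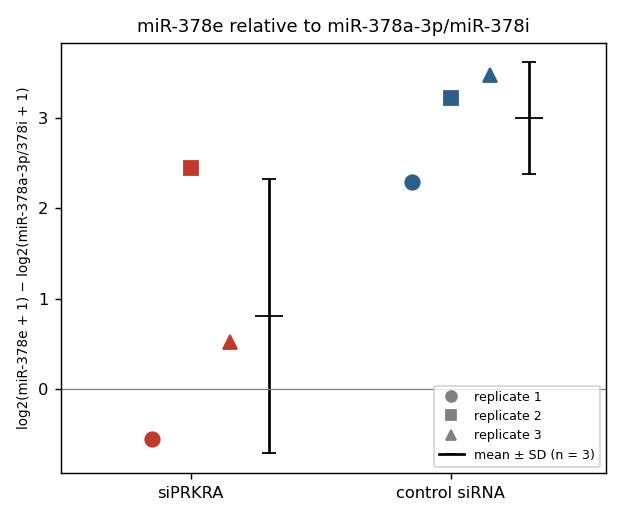
Difference of log2(value + 1) between miR-378e and miR-378a-3p/miR-378i in each library, siPRKRA on the left and control siRNA on the right, with the mean and SD of 3 libraries beside them. The siPRKRA points spread from -0.55 to 2.44 and the control siRNA points from 2.30 to 3.48.

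Over the 6 libraries no positive correlation between the 2 probes was seen in deposited values or counts. On the log2 scale of deposited values Pearson's r was -0.67 (exact permutation p = 0.0639, adjusted over 2 relations 0.128) and Spearman's rho was -0.89 (exact permutation p = 0.0333, adjusted 0.0667). Without siPRKRA replicate 3 and control siRNA replicate 3, the libraries farthest from the median of the miR-378a-3p/miR-378i probe, r was -0.83. In counts before the factor r was -0.24 (exact permutation p = 0.661, adjusted 0.661) and rho was -0.09 (exact permutation p = 0.919, adjusted 0.919), and without siPRKRA replicates 1 and 3 r was 0.17. The points share the factor of their library in the first case and the depth of the library in the second. Both groups enter these relations, and in deposited values their means differ in opposite directions for the 2 probes. The correlations and their p-values therefore do not separate a group difference from a relation between libraries of the same group. No correlation within a group of 3 libraries was computed.

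By pattern the probes had different nearest neighbours among the 106 tested miRNAs, taken by Pearson's r of log2(value + 1) over the 6 libraries as a description. The closest to the miR-378a-3p/miR-378i probe were miR-520a-5p at 0.92, miR-521 at 0.92 and miR-421 at 0.87. miR-520a-5p and miR-521 are members of C19MC, the primate-specific miRNA cluster expressed mainly in placenta. miR-521 had 113, 38.2 and 101 in siPRKRA replicates 1, 2 and 3, against 50.9, 29.2 and 21.5 in control siRNA replicates 1, 2 and 3. As with the miR-378 probe, siPRKRA replicate 2 was the lowest siPRKRA library and control siRNA replicate 1 the highest control siRNA library. None of the 3 neighbours passed, with log2 fold changes of 0.65 to 1.23 and limma adjusted p values of 0.265 to 0.299.

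The closest to miR-378e were miR-302d-3p at 0.99 and miR-371a-3p at 0.99, both from clusters known from pluripotent cells, and miR-4516 at 0.95. miR-378e itself came 100th of 105 in likeness to the miR-378a-3p/miR-378i probe, and that probe 93rd of 105 in likeness to miR-378e. Before the factor, miR-302d-3p and miR-371a-3p also had counts that were nearly level and interleaved between the groups. A value is a count times the factor, so probes with level counts run alike in value by construction. miR-302d-3p had 94, 92 and 75 counts in siPRKRA replicates 1, 2 and 3, against 65, 86 and 91 counts in control siRNA replicates 1, 2 and 3. Its range of 1.45-fold was the smallest of the 106, and that of miR-371a-3p was 1.52-fold, next after miR-378e. miR-4516 was not level, with 428, 439 and 343 counts in siPRKRA replicates 1, 2 and 3, all above the 247, 206 and 295 counts in control siRNA replicates 1, 2 and 3. The log2 fold changes of these neighbours in limma were -1.41, -1.69 and -0.85 at adjusted p values of 0.265, 0.265 and 0.417, and none passed.

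**Figure D5:**
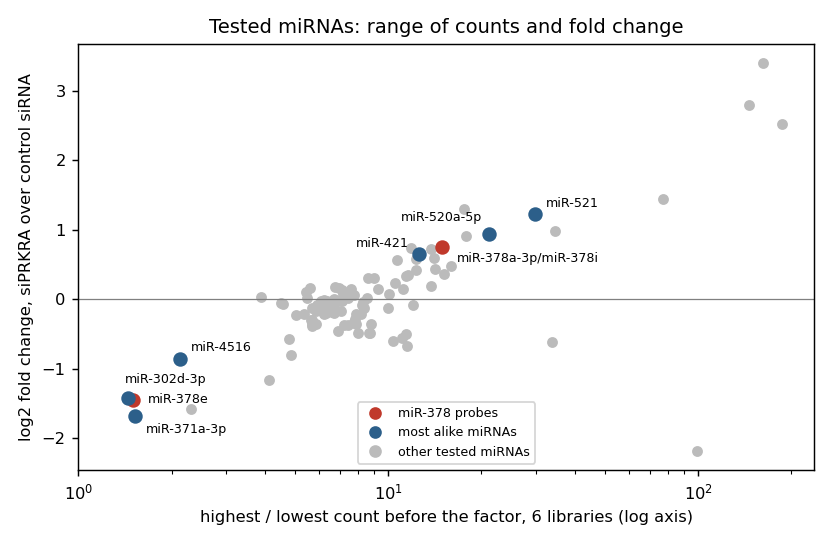
Each point is 1 of the 106 tested miRNAs, placed by the ratio of its highest to its lowest count before the factor over 6 libraries (log axis) and by its log2 fold change of siPRKRA over control siRNA. miR-378e lies at 1.50-fold and -1.44 beside miR-302d-3p and miR-371a-3p, and miR-378a-3p/miR-378i lies at 14.9-fold and 0.75.

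Other miRNAs with known roles in lipid and energy metabolism did not pass either. Of 17 listed, 10 were among the named probes and 9 were tested. Of these, 2 had a higher and 7 a lower estimate in siPRKRA cells. In limma 0 of the 9 passed, where 0 of all 106 tested miRNAs (0%) passed. The median log2 fold change of the 9 was -0.19, where that of all tested miRNAs was -0.06. The 4 highest, miR-29b-3p, miR-23a-3p, miR-27b-3p and miR-23b-3p, had log2 fold changes of -0.36, -0.18, -0.49 and -0.18. miR-33a-5p, named after its values were seen, is made from an intron of SREBF2, the gene of a sterol-responsive transcription factor, and represses cholesterol export. It had 54.1, 51.2 and 53.0 in siPRKRA replicates 1, 2 and 3, against 30, 29.2 and 49.2 in control siRNA replicates 1, 2 and 3. The groups did not overlap, as was the case for 29 of the 106 tested miRNAs (27.4%). The log2 fold change was 0.58 ± 0.28 (SE), with an adjusted p of 0.301 in limma.

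In the authors' deposited table, which compares the groups for the 177 named miRNAs 0 of the 3 family probes had an adjusted p under 0.05, where 2 of 177 (1.13%) had one. The authors' deposited table gives the miR-378a-3p/miR-378i probe a log2 level of 5.92 in siPRKRA and 5.16 in control siRNA cells, with an adjusted p of 0.452. For miR-378e the authors' deposited table gives 6.73 in siPRKRA and 8.19 in control siRNA cells, with an adjusted p of 0.567. For miR-378g the authors' deposited table gives 1.65 in siPRKRA and 0.53 in control siRNA cells, with an adjusted p of 0.607. Its number called a fold change is a signed ratio of these log2 levels, 1.15, -1.22 and 3.09 for the 3 probes, and the largest of them belongs to the probe at the floor in all control siRNA libraries.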

How the data were processed

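The authors deposited 3 tables. The authors made the deposited signal of 822 rows from nCounter counts by subtracting a background. As the values show, the miRNA rows were then multiplied by a factor. The 5 mRNA rows were read here in the same way, and the 12 control rows as counts without the factor. Within 0.1, 100% of the checked values of each library were whole counts after division by its factor and allowing for the fraction left by background subtraction. The deposited log2 table of 800 miRNA rows matched it within 0.000234. In the authors' table of p-values the fold change is treated as a score. No source used here names the software or normalising probes. limma 3.58.1 in R 4.3.3 (eBayes with trend, group as the only term, pseudocount 1) tested siPRKRA over control siRNA on log2(value + 1), which understates changes of low values. Permutation tests used scipy 1.17.1 under Python 3.11.15. The limma fit was run on simulated data with the same SD for every miRNA and both groups. miR-378e had unequal spreads, so the simulation does not show how the fit behaves for it. The members and lists were chosen with earlier results of these data known. Named were all probes whose name holds a miR-378 member, the 3 most alike tested miRNAs of each, and up to 4 highest members of each list. For same-numbered libraries, deviations from the group mean correlated at 0.17, -0.09 and -0.07, so numbers were not taken to pair them. Alternatives were 5 scalings, filters, pseudocounts, limma-voom, added background, a replicate block and each library left out.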

Additional observations from a re-analysis of the deposited data

How the results depend on the processing

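The log2 fold change of the miR-378a-3p/miR-378i probe kept its sign in 19 of 19 alternatives (0.07 to 2.38) and passed in 1, the scaling by graded control probes (2.38). That of miR-378e kept its sign in 18 of 19. It reversed to 0.21 with the graded control probes and passed at -2.01 with the 5 mRNA rows. The number of family probes called was 1 in each of these 2 scalings, and that of all tested miRNAs was 22 and 1. All called miRNAs numbered 635 with no filter, 602 of them at the floor in all libraries, and 1 with eBayes without trend. With each library left out, the values ranged from 0.48 to 1.0003 for miR-378a-3p/miR-378i, from -2.13 to -0.80 for miR-378e, from -3.01 to -1.52 for the difference between the probes, from 0 to 1 family probes and from 0 to 4 miRNAs called. The difference between the probes kept its sign in 10 of 10 alternatives. Its exact permutation p lay between 0.1 and 0.3. With so few libraries none of these tests could go below 0.1, so they could not pass. With the replicate block the log2 fold changes were 0.75 and -1.44 at limma adjusted p values of 0.390 and 0.322, the difference between the probes was -2.19, and 0 miRNAs passed. A count model in edgeR, planned in 2 forms, was not run because the deposited values are not raw counts. They are background-subtracted counts times a factor, with a floor. The limma-voom alternative used counts recovered from them. Low counts limit the precision of miR-378g, at the floor in 4 libraries and at 6 counts in siPRKRA replicate 3, and of the miR-378a-3p/miR-378i probe in control siRNA libraries, where it rested on 18 to 34 counts.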
